A study of Drosophila melanogaster with 27 samples.

Results

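The transcripts described here are those of 10 genes: 5 tubulins (alphaTub84B, alphaTub84D, betaTub56D, betaTub60D and betaTub97EF), the microtubule-associated proteins futsch and tau, the kinesin-1 subunits Khc and Klc, and the neuronal RNA-binding protein elav. They were taken by gene symbol from a table of 11923 genes, and all 10 were found. RNA came from the heads of female flies of Oregon-R, a wild-type strain, raised at 25 °C on standard food, with 20 heads pooled in each sample. The groups were 3 samples of flies aged 3 days, called young in the labels, and 3 samples of flies aged 50 days, called old. No transgene or treatment was used in these flies. The series holds 27 samples in 9 groups, and the 21 samples of the diet and fat body overexpression experiments were not analysed here.

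Microtubules are polymers of alpha- and beta-tubulin dimers, and axons and dendrites are packed with them. Proteins such as tau and Futsch, the fly relative of mammalian MAP1B, bind and stabilise these polymers, and kinesin-1 walks along them and carries vesicles and organelles away from the cell body. Elav is not a microtubule protein: it is an RNA-binding protein found in nearly all postmitotic neurons of the fly and serves as the standard marker of them. The fly has several tubulin isotypes, some made in most cells and others in a few tissues. In heads, RNA from brain neurons is mixed with that of photoreceptors, glia, muscle, fat body and other tissues, so that fewer cells of a type and less RNA per cell cannot be told apart.

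The values are read as FPKM, fragments scaled by transcript length and library size, and their sum per library ran from 427992 to 539645. Sequencing depth is unknown, so no counting error can be given for single values. Across genes, Pearson's r of log2 values between same-age libraries was 0.985 to 0.991, and between ages 0.895 to 0.940. The head samples carried their defining markers: ninaE, the major rhodopsin, lay between 12503 and 16797 FPKM, and 21 neuron markers summed to between 1466 and 2601 FPKM. Markers of the ovary germline summed to at most 0.321 FPKM and those of the testis germline to at most 1.098.

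Of the 10 genes, 4 fell with age at a limma adjusted p under 0.05: alphaTub84D, betaTub97EF, futsch and elav. None rose, and the other 6 did not pass the test (the unadjusted p was under 0.05 for the same 4 genes). Across the 8742 genes tested, 39.1% were called in either direction, 20.8% lower and 18.3% higher. The share of the 10 genes called, 40%, thus lay near the share of all genes, while all 4 calls were in the lower direction. The median log2 change of the 10 genes was -0.30, against -0.0011 over all genes tested, and 0 of them changed 2-fold. In 7 of the 10 genes every 50-day library lay below every 3-day library after scaling, which was so for 28.3% of all genes tested. For alphaTub84B and Klc this gap was very narrow. Their lowest young and highest old scaled values were 503.4 and 503.3 for alphaTub84B, and 44.24 and 44.18 for Klc. Of all genes tested, 26.0% had every old library above every young one, so that 54.3% were separate in either direction.

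**Figure D1:**
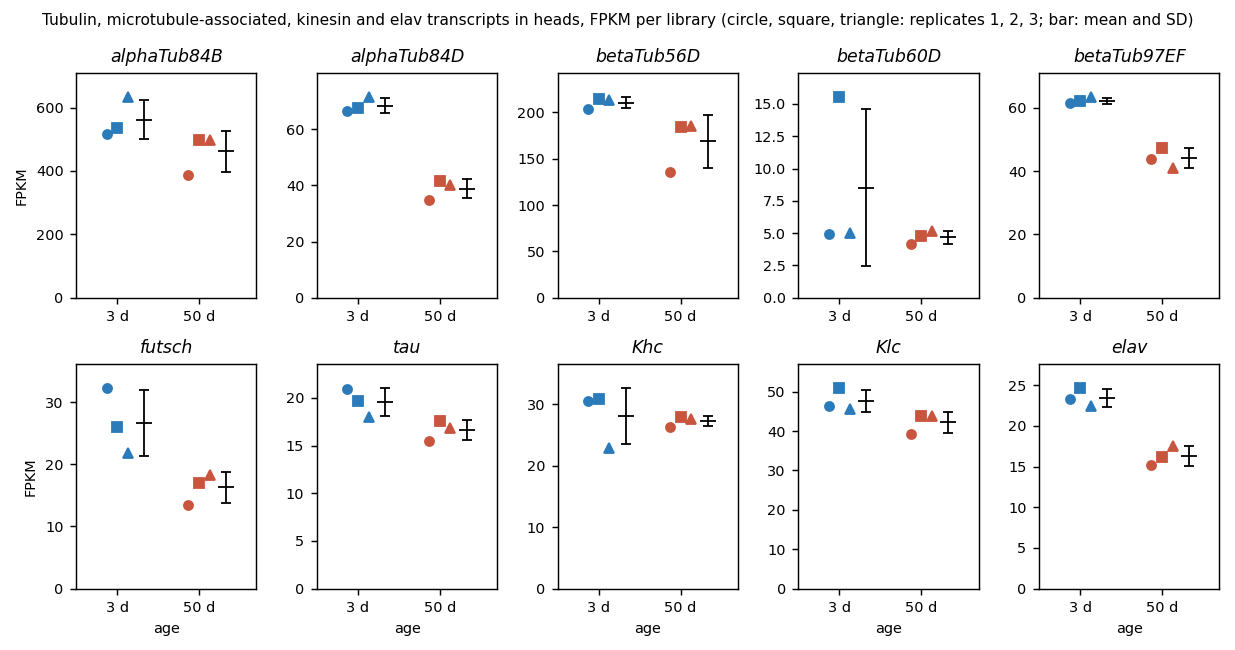
FPKM of each of the 10 genes in each library, with age in days on the x axis and a scale starting at 0 on each y axis; circles, squares and triangles are replicates 1, 2 and 3, and bars give the mean and SD of 3 libraries. The deposited values of the ages do not overlap in 8 genes, all but Khc and betaTub60D, and betaTub60D has a lone high value of 15.5 FPKM at 3 days.

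Among the alpha-tubulins, alphaTub84B and alphaTub84D encode nearly identical proteins that are made in most tissues. Both lie on chromosome arm 3R in the BDGP6.54 annotation, alphaTub84B at 7086599 to 7088839 and alphaTub84D at 7530753 to 7532732, and their annotated exons overlap those of no other gene. How the authors' counting treated reads shared between these close copies is not given in the sources used here, so the split between them is uncertain. alphaTub84B, the most abundant of the 10, was at 518, 535 and 632 FPKM in 3-day replicates 1 to 3 and at 387, 498 and 499 FPKM in 50-day replicates 1 to 3. All old libraries were below all young ones, but the gap was narrow, closing to 503.4 against 503.3 after scaling, and 50-day replicate 1 was low. The mean went from 562 ± 61.9 to 462 ± 64.2 FPKM (SD, n = 3 each), and the log2 change of -0.18 (95% interval -0.48 to 0.13) did not pass the limma test (adjusted p 0.321).

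alphaTub84D had the lowest log2 change of the 10 genes in the fit reported, although betaTub60D, described further on, had a slightly larger ratio of scaled means (1.68 against 1.64) that rests on 1 library. alphaTub84D was at 66.5, 67.4 and 71.4 FPKM in the young libraries and at 34.9, 41.4 and 40.1 FPKM in the old ones. The ages were far apart relative to the spread within each. Its mean fell from 68.4 ± 2.60 to 38.8 ± 3.46 FPKM (SD, n = 3 each), a 1.64-fold lower scaled level. On the log2 scale the change was -0.70 with an SE of 0.077 (limma adjusted p 0.000458). Of all genes tested, 6.02% had a lower change than this. The call held under each of 14 alternative fits, with changes of -0.98 to -0.66.

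Because both values come from the same library, the makeup of the alpha-tubulin pool does not depend on how libraries were scaled. alphaTub84D made up 11.4%, 11.2% and 10.1% of summed alpha-tubulin FPKM in the young libraries and 8.25%, 7.67% and 7.44% in the old ones. The groups did not overlap, and the exact permutation test (two-sided) gave p = 0.1, the smallest that 3 against 3 libraries can give, and 0.3 after Benjamini-Hochberg adjustment over the 18 ratios computed. alphaTub84B made up nearly all the rest, 88.5% to 89.8% in young and 91.7% to 92.5% in old heads.

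Of the beta-tubulins, betaTub56D is the main isotype of most cells and was the second most abundant transcript of the set. It was at 204, 214 and 213 FPKM at 3 days and at 136, 185 and 186 FPKM at 50 days. Old libraries were lower without overlap, with 50-day replicate 1 lowest. The log2 change of -0.22 (95% interval -0.48 to 0.033) did not pass (limma adjusted p 0.147). Without 50-day replicate 1 it was -0.12 (adjusted p 0.372), and that of alphaTub84B was -0.10 without the same library and -0.085 without 3-day replicate 3. Rescaling each library to the same sum, which shifts the median of all genes to -0.26, brought both abundant isotypes past the threshold: alphaTub84B with -0.46 (adjusted p 0.0169) and betaTub56D with -0.51 (adjusted p 0.0138).

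betaTub97EF, a beta-tubulin isotype with a more restricted expression than betaTub56D, was at 61.4, 62.1 and 63.3 FPKM in young heads. In old heads it was at 43.8, 47.4 and 41.03 FPKM. The coefficient of variation among young libraries was 1.55%, and every old library was lower. Its mean fell from 62.3 ± 0.963 to 44.1 ± 3.17 FPKM (SD, n = 3 each). This was -0.38 on the log2 scale with an SE of 0.088 (limma adjusted p 0.0102), and the call held under all 14 alternative fits. The makeup of the beta-tubulin pool showed no separation by age: betaTub97EF was 21.2% to 22.7% of summed beta-tubulin FPKM in young and 17.6% to 23.8% in old heads, and betaTub56D was 73.2% to 75.6% in young and 73.8% to 79.8% in old heads. The ratio of summed alpha- to summed beta-tubulin was 2.16, 2.06 and 2.495 at 3 days and 2.29, 2.27 and 2.32 at 50 days, so that old values lay within the range of young ones.

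betaTub60D, an isotype known for its use in developing muscle and other differentiating tissues, was the least abundant of the set and gave the widest spread. It was at 4.94, 15.5 and 5.04 FPKM at 3 days and at 4.12, 4.74 and 5.13 FPKM at 50 days. The value of 3-day replicate 2 was 3.11 times the mean of the other young libraries, and the remaining 5 libraries lay between 4.12 and 5.13 FPKM. The log2 change was -0.48 (95% interval -1.28 to 0.32, limma adjusted p 0.303), and without 3-day replicate 2 it was -0.0051 (adjusted p 0.973).

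betaTub60D was not alone in that library. With 3-day replicate 2, 23 genes had at least 3 FPKM and more than 2 times the highest of the other 5 libraries, and betaTub60D was the only 1 of the 10 described genes among them. The same count was 27 for 3-day replicate 1, 2 for 3-day replicate 3, and 4, 4 and 12 for 50-day replicates 1 to 3. Genes of this kind, chosen after their values were seen, included CG13159, at 187 FPKM in 3-day replicate 2 and listed at 0 in the other 5 libraries. CG9184 was at 111.6 FPKM there and at most 0.442 elsewhere, and ImpE2, an ecdysone-inducible gene of imaginal discs, was at 3.72 FPKM there and at most 0.0799 elsewhere. The part of these transcripts' source in the betaTub60D value was not tested.

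Other tubulins were near the bottom of the measured range, except gammaTub23C, a gamma-tubulin that nucleates microtubules. Its mean was 14.6 ± 0.478 FPKM in young and 14.9 ± 2.29 in old heads (SD, n = 3 each), and it did not pass (log2 change 0.12, limma adjusted p 0.336; the sign turned to -0.15 after rescaling to the same sum). The germline isotypes alphaTub67C (maternal) and betaTub85D (testis) and the ovary gamma-tubulin gammaTub37C reached at most 0.887 FPKM in every library. alphaTub85E was at 0.383, 0.379 and 0.369 FPKM in young heads and at 0.152, 0.0291 and 0 FPKM in old heads. CG32396 was at most 0.0622 FPKM. These 5 genes had a mean under 1 FPKM and were left out of the fit reported.

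Of the microtubule-associated proteins, futsch fell and tau did not pass. Futsch lines axonal and dendritic microtubules and shapes synaptic growth at the neuromuscular junction. futsch was at 32.3, 25.99 and 21.8 FPKM in young heads and at 13.5, 17.02 and 18.4 FPKM in old heads. Every old library was lower, but the young libraries spread widely, and the lowest young value was close to the highest old one. Its log2 change was -0.57 (SE 0.14, limma adjusted p 0.0155), a 1.53-fold lower scaled level. The call was lost without 50-day replicate 1 (-0.49, adjusted p 0.0562), within a range of adjusted p from 0.00237 to 0.0562 over 14 alternatives.

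futsch has the longest annotated exons of the set, 23308 bases in all on the X chromosome (BDGP6.54, 1409069 to 1453686), of which 5.09% are shared with exons of Gr2a on the same strand. Long transcripts as a class differed between libraries. The 448 tested genes with at least 8000 bases of exons had a median log2 deviation from their own means of 0.21, 0.11 and -0.067 in the young libraries and -0.098, -0.10 and -0.059 in the old ones. futsch deviated by 0.58, 0.24 and 0.031 in the young and by -0.45, -0.25 and -0.16 in the old libraries. In the young libraries futsch and the long genes ranked alike, highest in replicate 1 and lowest in replicate 3. In the old libraries both were highest in replicate 3, but futsch was lowest in replicate 1 and the long genes in replicate 2. elav, with 10715 bases of exons, deviated by 0.21, 0.25 and 0.14 in the young libraries, highest in replicate 2. The long genes had a median log2 change of -0.17, and 34.6% of them were called lower. With the length trend of each library removed, the change of futsch was -0.36 (limma adjusted p 0.0180). The part of this length trend in the change was not tested further.

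**Figure D2:**
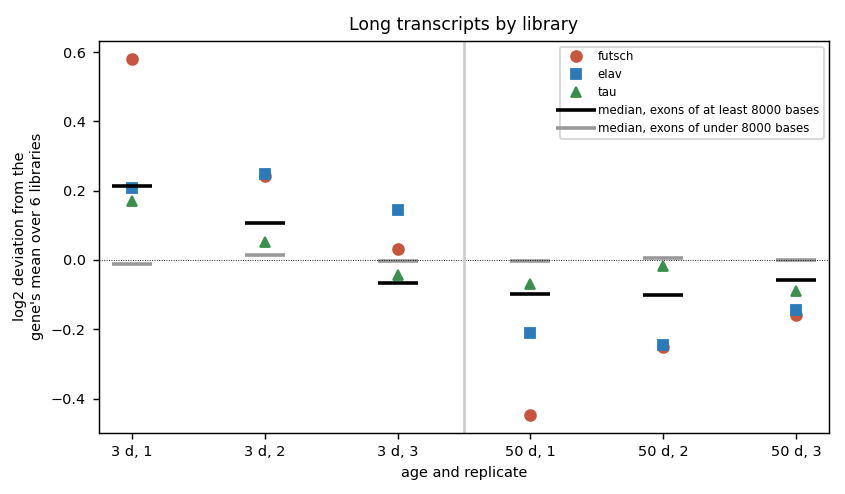
Log2 deviation of futsch, elav and tau in each library from the gene's mean over the 6 libraries (y axis), by age and replicate (x axis); black and grey dashes are the medians over the tested genes with exons of at least and under 8000 bases. futsch lies at 0.58 in 3-day replicate 1 and -0.45 in 50-day replicate 1, and the long genes at 0.21 and -0.098.

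tau binds along axonal microtubules and is the fly counterpart of the human protein that aggregates in Alzheimer's disease. It was at 20.9, 19.7 and 17.98 FPKM at 3 days and at 15.5, 17.6 and 16.8 FPKM at 50 days. The deposited values did not overlap, but after scaling they did. Its log2 change was -0.12 (95% interval -0.30 to 0.068, limma adjusted p 0.280). The sign turned to 0.031 when the length trend was removed, and tau passed when libraries were brought to the same sum (-0.39, limma adjusted p 0.0400). Within a library, the ratio of futsch to tau was 1.54, 1.32 and 1.21 in young and 0.871, 0.968 and 1.09 in old heads. It was lower in every old library, and the exact permutation test gave p = 0.1, the smallest possible (0.3 adjusted over 18 ratios). Exons of tau sum to 7252 bases, so this ratio sets genes of unequal length side by side.

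The kinesin-1 subunits had the smallest log2 changes of the 10 genes, and neither passed. Khc is the heavy chain with the motor domain, and Klc the light chain that binds cargo and adaptors. Khc was at 30.6, 30.8 and 22.8 FPKM at 3 days and at 26.3, 27.9 and 27.6 FPKM at 50 days. Old values lay inside the young range, in which 3-day replicate 3 was lowest. The log2 change was 0.077 (95% interval -0.19 to 0.35, limma adjusted p 0.634), and its sign turned with unscaled values (-0.029), after rescaling to the same sum (-0.20) and without 3-day replicate 3 (-0.057).

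Klc was at 46.3, 50.9 and 45.7 FPKM in young heads and at 39.1, 43.7 and 43.8 FPKM in old heads. Its groups did not overlap, by a margin smaller than the spread within a group. The log2 change was -0.063 (95% interval -0.23 to 0.11, limma adjusted p 0.529), and it passed with libraries brought to the same sum (-0.34), with adjusted p from 0.0477 to 0.841 over the 14 alternatives. Klc exceeded Khc per unit length in every library, by a ratio of 1.51, 1.65 and 2.002 in young and 1.49, 1.57 and 1.59 in old heads, and the ages overlapped.

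elav was at 23.3, 24.6 and 22.4 FPKM in young heads and at 15.1, 16.2 and 17.5 FPKM in old heads. The ages were separate, with little spread within each. The mean fell from 23.5 ± 1.122 to 16.3 ± 1.197 FPKM (SD, n = 3 each). This was -0.40 on the log2 scale with an SE of 0.072 (limma adjusted p 0.00370). All 14 alternative fits kept the call, and the smallest change was -0.23, with the length trend removed (adjusted p 0.0421). elav is annotated on the X chromosome at 509235 to 523226 with 10715 bases of exons, of which 27.9% are shared with the non-coding gene lncRNA:enrr on the same strand and 6.28% with arg on the other strand, so some of its signal cannot be assigned with certainty.

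**Figure D3:**
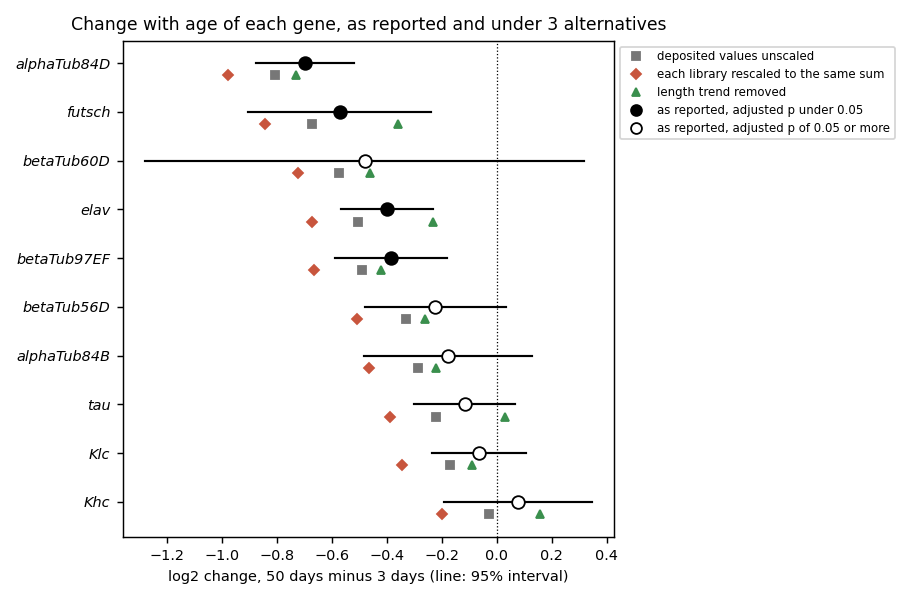
Log2 change from 3 to 50 days (x axis) of each of the 10 genes (y axis), with 95% intervals; filled circles are limma calls and small symbols are the changes under 3 alternatives. alphaTub84D, futsch, elav and betaTub97EF are called, and rescaling to the same sum moves each gene to the left by about the shift of all genes, -0.26.

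Per unit length, the order of the deposited levels in young heads was alphaTub84B, betaTub56D, alphaTub84D, betaTub97EF, Klc, Khc, futsch, elav, tau and betaTub60D. The ranges of Khc and futsch, and of futsch and elav, overlapped, so their places cannot be told apart, while the other neighbours were separate. In old heads alphaTub84D stood below betaTub97EF and Klc, but the ranges of these 3 genes all overlapped, so their order cannot be told apart. tau, futsch and elav then overlapped in turn, at means of 16.6, 16.3 and 16.3 FPKM.

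The changes were next set against neuron marker transcripts, a chosen list that does not measure all neuronal RNA. Of all genes tested, 20.8% were called lower and 18.3% higher. Of 21 neuron markers (genes of synaptic release, transmitters, ion transport and neuronal RNA binding, and Appl), 14 fell, 1 rose and 6 did not pass, and their median log2 change was -0.53. The median of these markers was -0.38 with the length trend removed and -0.41 without 3-day replicate 1. After rescaling to the same sum it was -0.81, where that of all genes was -0.26. Gad1, which makes the transmitter GABA, fell by 1.47 and the sodium pump subunit nrv3 by 0.85 on the log2 scale (limma adjusted p under 0.05 for both, as for every call in these lists). Rbp9, a neuronal RNA-binding protein of the same family as elav, rose by 0.88, while the third member of that family, fne, did not pass (log2 change -0.15, adjusted p 0.143). The geometric mean of the 21 markers was 85.6, 75.8 and 70.7 FPKM in young and 47.3, 51.6 and 54.7 FPKM in old libraries. The part of transcript length in this mean, and in ratios to it, was not tested.

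Relative to this mean, Khc was at 0.357, 0.407 and 0.323 in young and at 0.557, 0.541 and 0.504 in old heads. Klc was at 0.540, 0.671 and 0.646 in young and at 0.828, 0.847 and 0.800 in old heads, and tau at 0.244, 0.260 and 0.254 against 0.327, 0.341 and 0.307. These 3 ratios were higher in every old library than in every young one (exact permutation p = 0.1 each, the smallest possible; 0.3 adjusted over 18 ratios). The marker mean itself was lower in every old library. Khc, Klc and tau changed by 0.077, -0.063 and -0.12 on the log2 scale and did not pass. Their higher ratios thus do not show a rise of these 3 transcripts. The ratios of the other 7 genes overlapped between the ages. elav, at 0.273, 0.325 and 0.317 in young and 0.320, 0.313 and 0.320 in old heads, differed by 0.064 on the log2 scale (exact permutation p = 0.8, 0.9 adjusted). alphaTub84D was at 0.776, 0.890 and 1.01 in young and at 0.738, 0.803 and 0.733 in old heads, and futsch at 0.377, 0.343 and 0.309 against 0.285, 0.330 and 0.336.

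**Figure D4:**
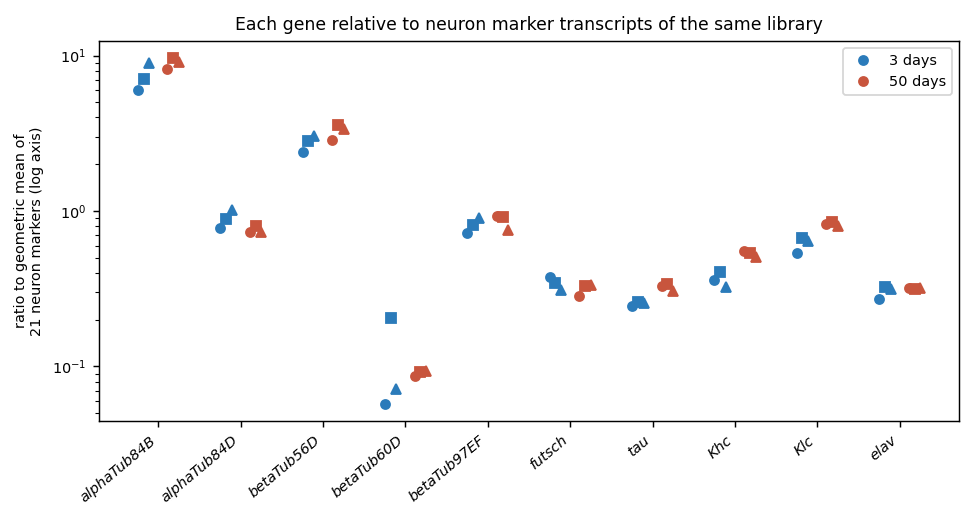
Ratio of each gene's FPKM to the geometric mean of 21 neuron markers in the same library (y axis, log scale) for 3-day (blue) and 50-day (red) libraries; circles, squares and triangles are replicates 1, 2 and 3. The ages are separate for tau, Khc and Klc, with old libraries higher, and overlap for the other 7 genes.

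Markers of other head tissues were counted as well. In the fit reported, 20.8% of all genes tested were called lower and 18.3% higher. Of 12 tested muscle markers, 10 fell and 0 rose (median log2 change -0.86), and their summed level was 1939 to 3200 FPKM in young and 948 to 1199 in old libraries, with fln under the filter. Of 10 glial markers, 4 fell and 2 rose, and their sum was 1216 to 1388 FPKM in young and 793 to 860 in old libraries. Of 12 tested fat body markers, 9 rose and 0 fell, and their sum went from 13619 to 29691 FPKM in young to 37024 to 62741 in old libraries, with Fbp2 under the filter. Most of that sum was the yolk protein genes Yp1, Yp2 and Yp3. Their means were 9045, 5421 and 4685 FPKM in young and 23568, 10233 and 13189 in old heads. Of 12 photoreceptor markers, 5 fell and 1 rose (summed 26250 to 30299 FPKM in young and 21480 to 27879 in old libraries), and of 7 hemocyte markers 3 fell and 1 rose (146 to 189 against 129 to 149). Leaving out libraries moved some of these counts: 5 fat body markers were higher without 50-day replicate 1. Without 3-day replicate 1, 50-day replicate 1 or 50-day replicate 2, 3 photoreceptor markers were lower, and without 50-day replicate 2, 0 were higher. For glia 1 was higher without 3-day replicate 2 or 50-day replicate 3, and for hemocytes 2 were higher without 3-day replicate 3. None of these 5 lists had a marker listed at 0 in all libraries. The tubulins are made in several of these tissues, and the part of tissue makeup in their changes was not tested.

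The genes whose levels ran most like a given gene were sought among 7045 others with a mean of at least 5 FPKM, by Pearson's r of log2 values over the 6 libraries. With 6 libraries that differ in age, such r values can be high for many genes and serve as description. For elav they were aPKC, a cell polarity kinase (r 0.998), Sema2a, an axon guidance ligand (0.998), and CG42748 (0.995). For futsch they were Lsm12, dtn and CG42674 (r 0.999 for each). Of these, dtn fell with age (log2 change -0.49, limma adjusted p 0.0242). Lsm12 (-0.18, adjusted p 0.125) and CG42674 (-0.23, adjusted p 0.0840) did not pass. For alphaTub84D, looked up after the values were seen, they were Zasp66, a protein of the muscle Z-disc (r 0.999), CG7639 (0.999) and CG4230 (0.998).

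Genes that act on tubulin or along microtubules gave a mixed picture. Of 16 tested genes for microtubule-binding, severing and stabilising proteins, 5 fell and 0 rose, with a median log2 change of -0.19. For this and the lists that follow, the shares of all genes tested in the fit reported were 20.8% lower and 18.3% higher, and the median was -0.0011. The shares differed in the alternative fits. After rescaling to the same sum 35.7% of all genes were called lower (median -0.26), and with unscaled values 26.0% (median -0.098). With 1 library left out, 15.3% to 22.5% were called lower. With the length trend removed, 1812 of 8707 genes were lower and 1843 higher. The katanin-like kat-60L1 fell by 0.53, stathmin (stai), which binds free tubulin dimers, by 0.52, and Jupiter, spastin (spas), a severing enzyme, and ringer, a tubulin polymerisation-promoting protein, by 0.39, 0.36 and 0.36 on the log2 scale. Without 3-day replicate 3, 9 of the 16 were called lower, as were 9 after rescaling to the same sum. With the length trend removed, 5 were lower and 3 higher and the median was -0.048. The end-binding protein Eb1, at 65.9 ± 3.07 and 66.7 ± 4.402 FPKM (SD, n = 3 each), did not pass (adjusted p 0.255).

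Of 13 tested kinesins other than Khc, 5 fell and 0 rose (median -0.17). unc-104, the kinesin-3 motor of synaptic vesicle precursors, was the most abundant, at 136 ± 11.4 FPKM in young and 86.4 ± 11.6 in old heads (SD, n = 3 each; log2 change -0.54, SE 0.10, limma adjusted p 0.00485). All parts of the heterotrimeric kinesin-2 motor of cilia and axons fell, Klp68D by 0.36, Kap3 by 0.30 and Klp64D by 0.27 on the log2 scale, as did cos, a kinesin-like protein of Hedgehog signalling, by 0.28. Without 3-day replicate 1, 3-day replicate 2 or 50-day replicate 1, 2 kinesins were called lower, while 15.3%, 16.6% and 15.8% of all genes were in those fits; without 50-day replicate 3 there were 3. With the length trend removed 4 were lower and 2 higher (median -0.045), and after rescaling to the same sum 8 were lower and 0 higher. Of 6 kinesin-1 adaptors 3 fell and 0 rose: Aplip1, the JIP1 scaffold, by 0.43, Unc-76 by 0.33 and milt, which links kinesin to mitochondria, by 0.29. After rescaling to the same sum 5 of the 6 were lower.

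Of 19 genes for dynein, the motor that runs toward the cell body, and its partner dynactin, 2 fell and 1 rose, with a median of 0.012. The median was -0.094 with unscaled values, with 3 lower, and -0.27 after rescaling to the same sum, with 4 lower. Without any 1 library 0 were called higher, and 1 lower except without 3-day replicate 3, which gave 2; the count without 3-day replicate 3 had a median of -0.059. Lis-1, a dynein regulator, fell from 113 ± 4.70 to 81.7 ± 4.83 FPKM (SD, n = 3 each; log2 change -0.36, adjusted p 0.00994), and DCTN4-p62 fell by 0.24. nudC rose by 0.33 (adjusted p 0.0457), but 0 of the 19 were called higher with unscaled values, with no filter on low values or with no variance trend, and 2 were with the length trend removed. The dynein heavy chain Dhc64C did not pass (log2 change -0.22, adjusted p 0.0717).

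Of 19 tubulin-folding genes, among them chaperonin and prefoldin subunits and tubulin cofactors, 3 rose and 1 fell (median 0.082). TBCB, a cofactor for alpha-tubulin, rose by 0.42, the prefoldin genes Pfdn1 and mgr rose by 0.37 and 0.29, and Tbce fell by 0.37. With unscaled values 0 of these genes were called higher and 2 lower, and after rescaling to the same sum 0 and 4, so the direction of the list depends on the scaling. With the length trend removed 1 was higher and 1 lower (median 0.039). Without 50-day replicate 2, 0 were called higher, and without 50-day replicate 1, 1. Of 8 tested tubulin-modifying genes, 2 fell and 1 rose, and 1 was called lower without 3-day replicate 1, 3-day replicate 2, 50-day replicate 1 or 50-day replicate 3. With unscaled values 4 of the 8 were lower, after rescaling to the same sum 6. HDAC6, a tubulin deacetylase, was at 24.3, 24.1 and 22.9 FPKM in young and at 40.1, 33.2 and 34.2 FPKM in old heads, and rose by 0.67 on the log2 scale (limma adjusted p 0.00271). The deacetylase Sirt2 fell by 0.32 and CG3967, the tubulin acetyltransferase Atat, by 0.30.

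**Figure D5:**
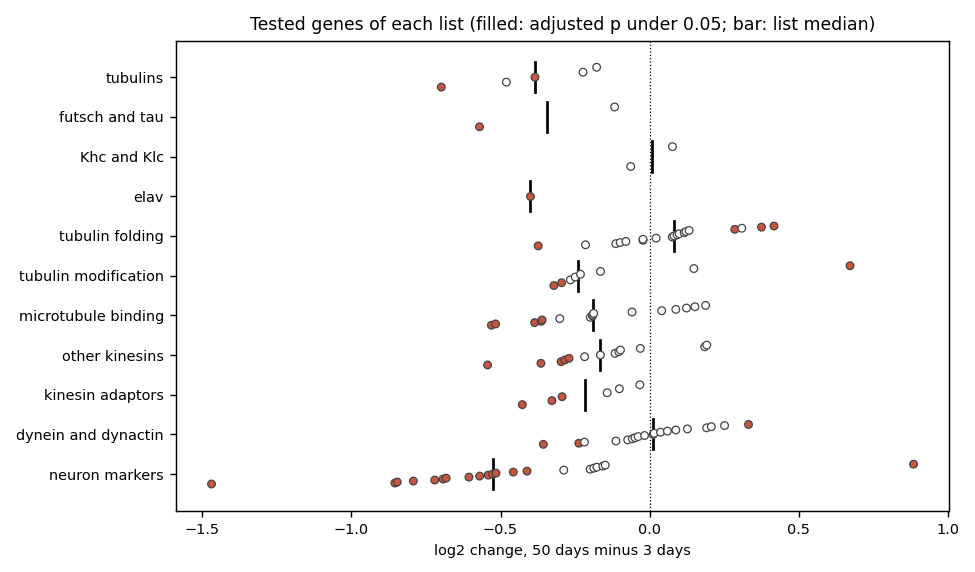
Log2 change from 3 to 50 days (x axis) of each tested gene, by list (y axis); filled points are limma calls and bars are list medians. The neuron markers have a median of -0.53, the 5 tubulins -0.38, other kinesins -0.17, dynein and dynactin 0.012 and tubulin folding 0.082. The tubulin median includes betaTub60D (-0.48), whose change was -0.0051 without 3-day replicate 2, so that the place of this small list depends on that library.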

How the data were processed

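Polyadenylated RNA of heads was sequenced as paired reads, per the labels' protocols. The submitters' processing notes name fastp, HISAT2, HTSeq and the build BDGP6, with no versions or settings. The authors deposited non-whole values for 6 libraries, 3 per age, and they are read here as FPKM; neither the file header nor the labels name the unit, and TPM over a longer list would look alike. That would change levels by a factor per library. The scaled changes would depend on it through the 1 added to each value and the cut-offs on low values. With 0.1 added instead of 1, alphaTub84D was at -0.71 and futsch at -0.59, against -0.70 and -0.57 as reported.

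Libraries were put on a common scale with a trimmed-mean factor each (30% of ratios and 5% of levels trimmed at each end; 0.948 to 1.11), so changes are relative to the bulk of genes. Genes averaging 1 FPKM or more were fitted as log2(value + 1) with limma 3.58.1 in R 4.3.3, with a variance trend, no covariate and Benjamini-Hochberg adjustment over 8742 genes at 0.05. This scale understates changes of low genes. Levels, SD and ratios use deposited values. The script was tested on simulated data. Replicates are separate pools per the labels; no batch is given.

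The 10 genes and the lists were chosen with earlier results of these data known. Every one of the 10 is described; other lists name up to 4 called genes at the extremes, with a mean of at least 5 FPKM, and further genes named were chosen after their values were seen. Exon lengths and positions come from the BDGP6.54 annotation, matched for 11882 of 11923 symbols. Alternatives were another pseudocount, filters, scalings, no variance trend, a replicate block, a length correction and leaving out each library; their use on the other lists was added after seeing the data. No columns were left without a sample (0).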

Additional observations from a re-analysis of the deposited data

How the results depend on the processing

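The calls of alphaTub84D, betaTub97EF and elav held in all 14 alternative fits, and that of futsch in 13, being lost without 50-day replicate 1 (-0.49, adjusted p 0.0562). The 10 genes gave 4 calls, all lower, in every alternative fit but these: 3 without 50-day replicate 1 and 8 after rescaling each library to the same sum. Across the fits that left out 1 library the count of calls, all lower, ran from 3 to 4. The share of all genes called lower also moved, from 15.3% without 3-day replicate 1 to 35.7% after rescaling to the same sum. The share called in either direction ran from 28.8% with no filter on low values to 44.1% after that rescaling. Rescaling to the same sum added alphaTub84B (-0.46), betaTub56D (-0.51), tau (-0.39) and Klc (-0.34). It also moved the median of all genes to -0.26, from -0.0011 as reported. It gave 734 genes higher and 3125 lower, against 1604 and 1814 as reported. Unscaled values gave 1138 higher and 2271 lower. The sign of tau turned with the length trend removed (0.031), and that of Khc with unscaled values (-0.029), the same sum (-0.20) and over the fits without 1 library (-0.057 to 0.17); the cause was not tested. Without 1 library futsch ran from -0.70 to -0.40. No pairing by replicate number was seen (correlation of same-numbered deviations -0.21, -0.10 and -0.24). Differently numbered libraries were not compared in this way, so shared handling by replicate number was not tested. With the replicate number as a block 2703 genes, and 4 of the 10, were called. Of the within-library ratios, log2 differences with age changed sign for betaTub60D to the neuron markers when 1 was added to each value (0.0078), and without 1 library ran from -0.41 to 0.50 for it; they ran from -0.54 to 0.25 for the betaTub60D share, from -0.014 to 0.11 for elav to the neuron markers and from -0.017 to 0.12 for alpha- to beta-tubulin. Depth is unknown, so the precision is that of 3 libraries per age.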
